A study of Mus musculus with 6 samples.

Results

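Gpnmb, Mlana and 8 genes linked to the lysosome and to the transcription factor MITF were followed in stromal cells of mouse inguinal white adipose tissue (iWAT). The 10 members were found by symbol among the 31053 genes counted: Gpnmb, Mlana, Mitf, Tfeb, Tfe3, Ctsk, Ctsd, Lamp1, Mcoln1 and Mcoln2. Gpnmb and Mlana were picked because they had been seen to be higher in aged fibroblasts of these same libraries, so their age differences in fibroblasts are given as values with no test. The other 8 members were picked for what they are known to do, with earlier results of these data known. Their age differences were tested.

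The cells came from C57BL/6 male mice that were young (9 weeks) or aged (57 weeks), supplied by the NIA as C57BL/6JN or by Jackson Laboratories as C57BL/6J. Every mouse first spent 3 weeks at 30 °C, and was then kept at 30 °C (thermoneutrality, TN), placed at 6 °C for the last 3 days (3D cold) or placed at 6 °C for 14 days (14D cold). Stromal vascular cells were sorted for live cells without the immune surface protein CD45, and 1 single-cell library was made for each age and temperature, 6 libraries in all. The study's methods say that mice were pooled only where noted and note no pooling for these libraries, and a number of mice per library is not given in the sources used here. With 3 libraries per age and no second library of any group, no p-value below measures spread between replicates. Those for age and temperature rest on what an additive fit of both leaves over among the 6 libraries, which may be technical in part. Those between classes rest on 18 sums with library as a block.

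MITF, TFEB and TFE3 are related transcription factors of the MiT/TFE family that bind the E-box CACGTG and switch on genes of the lysosome, the acidic organelle in which proteins, lipids and matrix fragments are broken down. When nutrients are plentiful, the kinase complex mTORC1 on the lysosome surface, working with Rag GTPases and with folliculin and its FNIP partners, holds these factors in the cytoplasm. MITF is best known as the master regulator of pigment cells, where Mlana (melan-A) and Gpnmb (a glycoprotein of melanosomes and lysosomes) are among its targets. Gpnmb is also made by lipid-laden macrophages in adipose tissue. Counts of RNA do not show where a factor's protein sits in the cell.

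All members are protein-coding genes, and positions are those of mouse genome build GRCm38. Gpnmb is at chr6:49036546-49070929 (plus strand) and Mlana at chr19:29697824-29708634 (plus strand). The factor genes Mitf, Tfeb and Tfe3 are at chr6:97807052-98021349, chr17:47737030-47792419 and chrX:7762560-7775202, all on the plus strand. Ctsk is at chr3:95499256-95509362 (plus strand), Ctsd at chr7:142375911-142388038 (minus strand), Lamp1 at chr8:13159161-13175338 (plus strand), Mcoln1 at chr8:3500457-3515232 (plus strand) and Mcoln2 at chr3:146149833-146195513 (plus strand). Ctsd shares bases with Gm49369 on the same strand, so its counts are less certain than the others. Mitf and Lamp1 overlap the pseudogene Gm15531 and the gene Grtp1 on the opposite strand.

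Promoter sequences from RefSeq (build GRCm38.p6) were matched for 9 members at 14 start sites, and the 250 bases before each start were searched on both strands for CACGTG. Lamp1 held 4 copies, Ctsd 2, Mcoln1 2 and Mcoln2 1, while 6.02% of the 32851 mouse promoters in the table held at least 1. None of the windows of Gpnmb, Ctsk, Mitf, Tfeb or Tfe3 held the motif, and the variant CATGTG, present in 12.3% of all promoters, was in none of the 14. Starts are those of RefSeq, and the gene spans given above begin upstream of them for Mitf, Tfeb, Tfe3, Ctsd, Mcoln1 and Mcoln2. The second copies of Ctsd and Mcoln1 and the copy of Mcoln2 lie inside those spans. In the windows of Ctsd, Mcoln1 and Mcoln2, 211, 62 and 6 bases are in annotated UTRs. A match is a string of letters and not a shown binding site, and its absence says only that these letters are not in this window. The window of Gpnmb is shown because the gene was chosen on its age difference and has a promoter entry. That of Ctsk is shown because Ctsk passed the age test in all 3 fibroblast classes. The window of Lamp1 is shown because it held the most copies of the motif. Each is written 5′ to 3′ with CACGTG in capitals, from chr6:49036268-49036517, chr3:95498960-95499209 and chr8:13158911-13159160, all on the plus strand.
Gpnmb: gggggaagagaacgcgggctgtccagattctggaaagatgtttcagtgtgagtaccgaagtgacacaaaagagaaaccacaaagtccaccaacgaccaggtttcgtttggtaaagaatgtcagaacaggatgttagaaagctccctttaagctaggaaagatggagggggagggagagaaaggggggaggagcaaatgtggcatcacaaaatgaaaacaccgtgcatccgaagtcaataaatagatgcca
Ctsk: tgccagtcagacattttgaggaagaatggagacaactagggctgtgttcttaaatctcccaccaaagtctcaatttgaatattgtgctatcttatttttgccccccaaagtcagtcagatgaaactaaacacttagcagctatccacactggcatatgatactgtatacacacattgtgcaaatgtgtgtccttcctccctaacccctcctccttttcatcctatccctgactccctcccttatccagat
Lamp1: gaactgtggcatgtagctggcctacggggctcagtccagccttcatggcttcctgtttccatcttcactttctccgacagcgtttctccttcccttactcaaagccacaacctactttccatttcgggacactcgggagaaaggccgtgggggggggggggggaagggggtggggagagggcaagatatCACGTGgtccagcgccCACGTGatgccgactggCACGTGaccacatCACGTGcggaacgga
For the other members with the motif, 30 bases around each copy are shown in the same way, from chr7:142388048-142388077 and chr7:142387908-142387937 (minus strand) for Ctsd, chr8:3500436-3500465 and chr8:3500462-3500491 (plus strand) for Mcoln1, and chr3:146150090-146150119 (plus strand) for Mcoln2.
Ctsd, first copy: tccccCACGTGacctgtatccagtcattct
Ctsd, second copy: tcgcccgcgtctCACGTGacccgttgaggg
Mcoln1, first copy: ggtcgcgcttgtCACGTGttcagttcaggc
Mcoln1, second copy: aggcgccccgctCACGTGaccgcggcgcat
Mcoln2: tccctgagctcaCACGTGgaccccattctg

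The 6 libraries held 52068837 to 88508349 unique molecular identifiers (UMIs, each standing for 1 captured RNA molecule). Of 68103 barcodes, 57326 passed the cell filter, 27662 young and 29664 aged, and 91.4% of these were given a class from marker genes: 22240 Dpp4+ fibroblasts, 21891 Icam1+ preadipocytes, 3070 Cd142+ fibroblasts, 3920 endothelial cells, 837 smooth muscle cells or pericytes (SMC/pericytes), 264 immune cells, 124 Schwann cells and 63 lymphatic endothelial cells. The first 3 are the fibroblastic progenitors of the tissue (ASPCs), and 8 of 10, 7 of 10 and 6 of 7 of their markers were highest in the class they define. Cell classes were rebuilt here from markers, and 3.26%, 3.89% and 13.2% of the 3 fibroblast classes lay near the limit of the gate. The aged 14D cold library stood apart, with a median of 2741.5 UMIs per kept cell against 6726 to 9904 in the other 5 and with 19.4% of its cells in no class against 5.66% to 6.55%, so age values are also given without it. Among kept cells, 399 of 56927 barcode sequences occurred in 2 or more libraries, 18 to 35 for any pair.

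Levels below are in CPM, the UMIs of a gene summed over the cells of a class in a library and scaled to 1000000 UMIs over all genes. TMM factors were applied, except for Schwann cells and for the comparisons of cells with and without a Mlana or Gpnmb UMI. Differences are on the log2 scale from the edgeR fit with their standard error (SE). Gpnmb was higher in aged than in young fibroblasts of all 3 classes. In Dpp4+ fibroblasts it stood at 30.8, 60.5 and 33.9 CPM in young TN, 3D and 14D cold and at 122, 188 and 145 CPM in aged, from 1154 to 5026 UMIs per library. The lowest aged library thus lay above the highest young one, and the fitted difference was 1.90 ± 0.088 (SE, 6 libraries), 3.74-fold. In Icam1+ preadipocytes Gpnmb stood at 122, 181 and 136 CPM in young and 216, 307 and 260 CPM in aged, a difference of 0.84 ± 0.063 with no overlap. In Cd142+ fibroblasts it stood at 181, 327 and 187 CPM in young and 309, 583 and 390 CPM in aged, a difference of 0.89 ± 0.091. Here the ages overlapped, since aged TN lay below young 3D cold, although the aged library was the higher one at each temperature.

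Mlana was a rare transcript with a sharper age difference. In Icam1+ preadipocytes it stood at 19.0, 37.3 and 26.9 CPM in young TN, 3D and 14D cold and at 76.7, 127 and 108 CPM in aged, a difference of 1.93 ± 0.072 or 3.80-fold. In Cd142+ fibroblasts it stood at 6.58, 15.7 and 7.05 CPM in young and 32.6, 62.4 and 46.7 CPM in aged, a difference of 2.27 ± 0.16. In Dpp4+ fibroblasts it was close to absent, at 0.187, 0.735 and 0.721 CPM in young and 1.75, 3.55 and 3.94 CPM in aged. These values came from only 7 to 95 UMIs per library, and the difference was 2.51 ± 0.23. Endothelial cells, the background class below, held Mlana at 0, 0 and 0.837 CPM in young and 0.640, 1.93 and 3.63 CPM in aged. Whether the Dpp4+ signal differs from that background was not tested. In each of the 3 fibroblast classes the aged libraries lay above all young ones, in the contrast on which Mlana was chosen. Without the aged 14D cold library the Gpnmb differences were 1.80, 0.79 and 0.82 in Dpp4+, Icam1+ and Cd142+ cells and those of Mlana 2.55, 1.89 and 2.10.

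**Figure D1:**
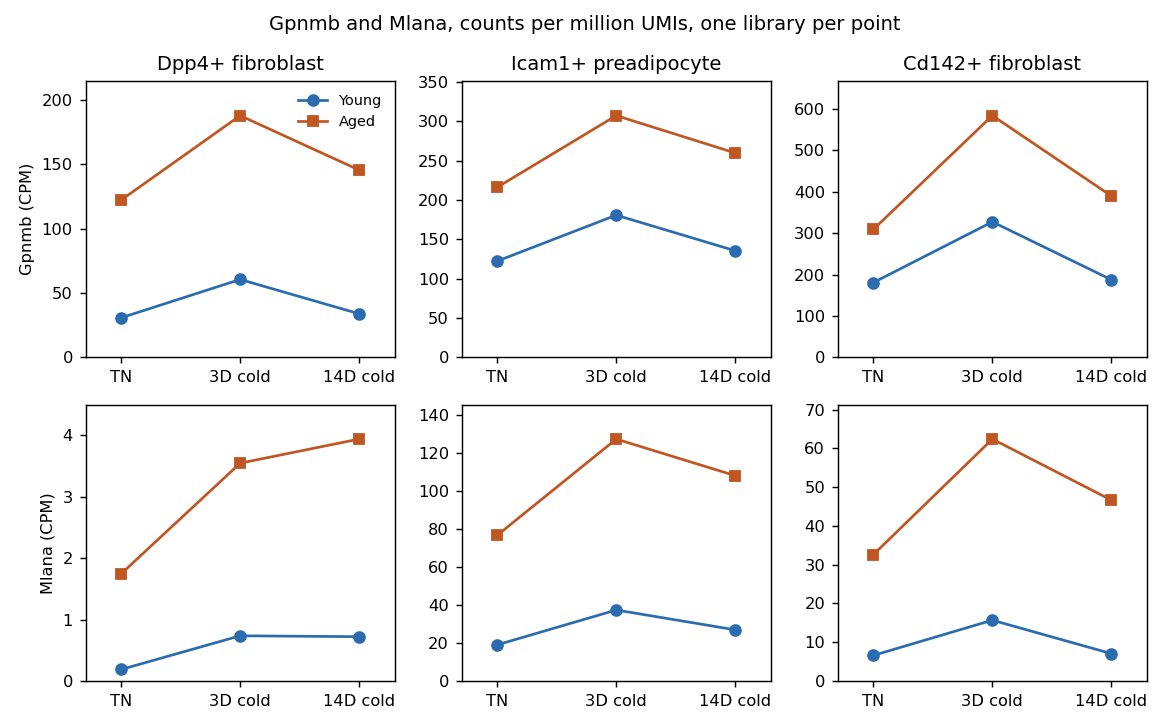
Gpnmb and Mlana in the 3 fibroblast classes, with 1 point for each library, temperature on the x axis and CPM on a y axis that starts at 0, in young and aged mice. The aged point lies above the young point at each temperature, for genes that were chosen on this contrast. The ages overlap for Gpnmb in Cd142+ fibroblasts.

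The plot of Gpnmb and Mlana by temperature shows each gene on its own scale in each class. The vertical shift between the ages is seen at TN as well as in the cold, and the highest point of each age is at 3D cold in every panel but that of Mlana in Dpp4+ fibroblasts, where aged 14D cold is the highest.

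Of the 8 members picked for function, only Ctsk was higher with age in each of the 3 fibroblast classes by the edgeR quasi-likelihood test with Benjamini-Hochberg adjustment over all genes tested, at a threshold of 0.05. Among Dpp4+ fibroblasts 2 of the 8 passed, among Icam1+ preadipocytes 1 and among Cd142+ fibroblasts 3, all higher in aged cells, where 16.5%, 11.9% and 9.83% of all tested genes passed in either direction. All 10 members had enough counts to be tested in these classes. Ctsk encodes cathepsin K, a lysosomal protease that cleaves collagen. It stood at 167, 164 and 157 CPM in young and 194, 253 and 212 CPM in aged Dpp4+ fibroblasts, without overlap, a difference of 0.43 ± 0.077 (adjusted p = 0.00441). In Cd142+ fibroblasts it stood at 436, 819 and 424 CPM in young and 638, 1048 and 780 CPM in aged, with overlap, a difference of 0.59 ± 0.10 (adjusted p = 0.00254). In Icam1+ preadipocytes, which held the most Ctsk, it stood at 714, 922 and 807 CPM in young and 847, 1121 and 1193 CPM in aged, again with overlap, a difference of 0.36 ± 0.087 (adjusted p = 0.0370). That last call was lost without any 1 library (adjusted p 0.0545 to 0.154) and without the temperature term, and over all its alternatives the adjusted p ran from 0.00252 to 0.252.

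Among the factor genes, Mitf was higher in aged Cd142+ fibroblasts. It stood there at 33.9, 62.9 and 39.5 CPM in young and 52.7, 95.7 and 74.3 CPM in aged, a difference of 0.71 ± 0.11 or 1.64-fold (adjusted p = 0.00100), and the ages overlapped because young 3D cold lay above aged TN. Its differences in Dpp4+ fibroblasts (0.10, adjusted p = 0.342) and Icam1+ preadipocytes (0.18, adjusted p = 0.128) did not pass. Tfeb and Tfe3 did not pass in any fibroblast class, with differences of -0.16 to -0.08 for Tfeb and 0.04 to 0.13 for Tfe3. Tfeb ran from 10.5 to 15.9 CPM and Tfe3 from 49.3 to 70.1 CPM over the 18 fibroblast sums, and young and aged libraries overlapped in each class for both.

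Mcoln1 and Mcoln2 encode TRPML1 and TRPML2, cation channels of the lysosome and endosome membrane that let calcium out of the organelle. Mcoln2 was higher in aged Dpp4+ fibroblasts, at 5.84, 5.54 and 4.49 CPM in young and 9.98, 8.29 and 7.18 CPM in aged, a difference of 0.68 ± 0.10 without overlap (adjusted p = 0.00183). In Cd142+ fibroblasts it stood at 3.95, 6.07 and 5.21 CPM in young and 7.20, 18.6 and 10.5 CPM in aged, a difference of 1.24 ± 0.26 without overlap (adjusted p = 0.00868). This second call rested on the 3D cold libraries: the adjusted p was 0.149 without young 3D cold, where the difference was 0.94, 0.156 without aged 3D cold and 0.208 with DESeq2, and ran from 9.13e-05 to 0.208 over its alternatives. In Icam1+ preadipocytes Mcoln2 ran from 5.96 to 14.5 CPM with no age order (difference 0.04, adjusted p = 0.918). Mcoln1 differed by 0.20, 0.16 and 0.00 in the 3 classes and did not pass.

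The age differences of Ctsd and Lamp1 were small. Ctsd, which encodes the main aspartyl protease of the lysosome, ran from 215 to 283 CPM over the 18 fibroblast sums, with differences of -0.12 to -0.04 that did not pass. Lamp1, a major glycoprotein of the lysosome membrane, stood at 513, 493 and 519 CPM in young and 553, 556 and 573 CPM in aged Icam1+ preadipocytes. All 3 aged libraries lay above all young ones there and in Cd142+ fibroblasts, but the differences of 0.14 and 0.15 did not pass (adjusted p = 0.194 and 0.305). In Dpp4+ fibroblasts the difference was 0.01.

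Without the aged 14D cold library, the age differences that passed were 0.42 for Ctsk and 0.68 for Mcoln2 in Dpp4+ fibroblasts (adjusted p = 0.0174 and 0.00847). In Cd142+ fibroblasts they were 0.63 for Mitf, 0.46 for Ctsk and 1.37 for Mcoln2 (adjusted p = 0.0165, 0.0414 and 0.0370). Ctsk in Icam1+ preadipocytes then differed by 0.26 and did not pass (adjusted p = 0.154).

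**Figure D2:**
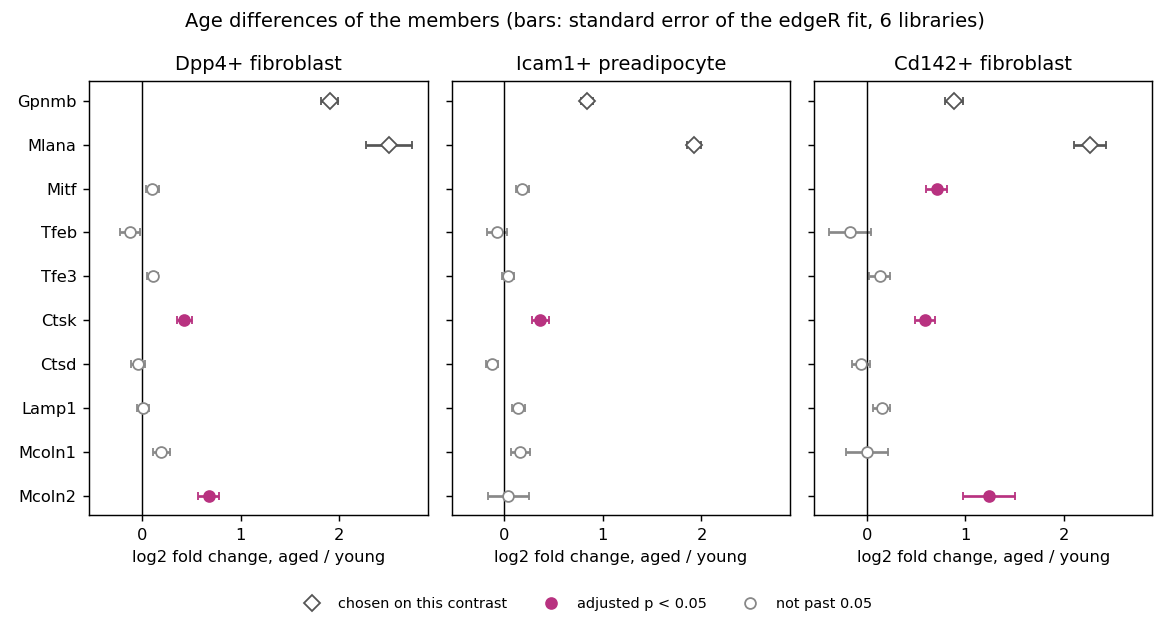
Age differences of the 10 members, aged over young on the log2 scale, in 3 panels for the fibroblast classes. Points are the edgeR estimates over 6 libraries and bars their SE; diamonds mark Gpnmb and Mlana, which were chosen on this contrast, and filled circles the members past an adjusted p of 0.05: Ctsk in each class, Mcoln2 in 2 classes and Mitf in Cd142+ fibroblasts.

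In the plot of age differences, Tfeb, Tfe3, Ctsd, Lamp1 and Mcoln1 sit between -0.16 and 0.20 in every panel, while Gpnmb and Mlana sit between 0.84 and 2.51.

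Temperature was the other axis of the design and was not used to choose the members, so all 10 were tested for it, with both cold times set against TN in 1 test and age in the model. The number that passed was 4 of 10 for Dpp4+ cells, 2 for Icam1+ cells and 4 for Cd142+ cells, where 6.29%, 2.88% and 1.66% of all tested genes passed. Gpnmb rose at 3D cold in all 3 classes, by 0.80 in Dpp4+, 0.54 in Icam1+ and 0.89 in Cd142+ cells on the log2 scale, and stood only 0.20 to 0.21 above TN at 14D cold (adjusted p = 0.004965, 0.0302 and 0.00275). Within the ages taken apart, the 3D cold level of Gpnmb was above TN by 0.56 to 0.98 in young and by 0.51 to 0.92 in aged cells. Mlana rose as well, by 0.85 and 0.50 at 3D and 14D cold in Icam1+ preadipocytes (adjusted p = 0.0130). In Cd142+ fibroblasts it rose by 1.04 and 0.42 (adjusted p = 0.0317). The rise was 1.29 and 1.39 (adjusted p = 0.0445) in Dpp4+ fibroblasts, where Mlana stood near its endothelial level. The Mlana calls passed in 11 of 14 alternatives in Icam1+, 7 of 13 in Cd142+ and 4 of 13 in Dpp4+ cells, with adjusted p up to 0.928, 0.995 and 0.870.

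Mitf followed the same course. It stood at 38.7, 61.2 and 49.8 CPM in young and 46.2, 65.3 and 48.8 CPM in aged Dpp4+ fibroblasts at TN, 3D and 14D cold, and rose by 0.58 at 3D and 0.23 at 14D cold (adjusted p = 0.00836). In Cd142+ fibroblasts it rose by 0.88 and 0.37 (adjusted p = 0.00976). These calls passed in 11 of 14 alternatives in Dpp4+ cells (adjusted p up to 0.597) and 10 of 14 in Cd142+ cells (up to 0.995). In Icam1+ preadipocytes Mitf stood at 44.9, 67.0 and 55.6 CPM in young and 56.0, 70.7 and 61.8 CPM in aged, and its differences of 0.46 and 0.22 did not pass (adjusted p = 0.06035). Over the alternatives this last value ran from 0.0142 to 0.638 and passed in 5 of 14.

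Ctsk rose at 3D cold in Cd142+ fibroblasts by 0.82, with 0.13 at 14D cold (adjusted p = 0.00630), and Tfe3 rose in Dpp4+ fibroblasts by 0.33 and 0.31 (adjusted p = 0.0378). The Ctsk call passed in 12 of 14 alternatives and the Tfe3 call in 9 of 14, with adjusted p up to 0.995 and 0.653. Tfeb, Ctsd, Lamp1, Mcoln1 and Mcoln2 did not pass for temperature in any fibroblast class. In Cd142+ fibroblasts 6 of 10 members had their highest level at 3D cold in both ages, in Icam1+ preadipocytes 5 and in Dpp4+ fibroblasts 2, beside 14.9%, 20.3% and 15.8% of all tested genes in the same order. Each temperature had 1 library per age. The calls of Gpnmb in Dpp4+ and Cd142+ cells held without any 1 library. The call of Gpnmb in Icam1+ preadipocytes was lost without young 3D cold (adjusted p = 0.3066), aged 3D cold (0.2325), young TN (0.06378) or aged TN (0.08338), and ran from 0.000270 to 0.854 over its alternatives; all calls were lost without the age term.

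**Figure D3:**
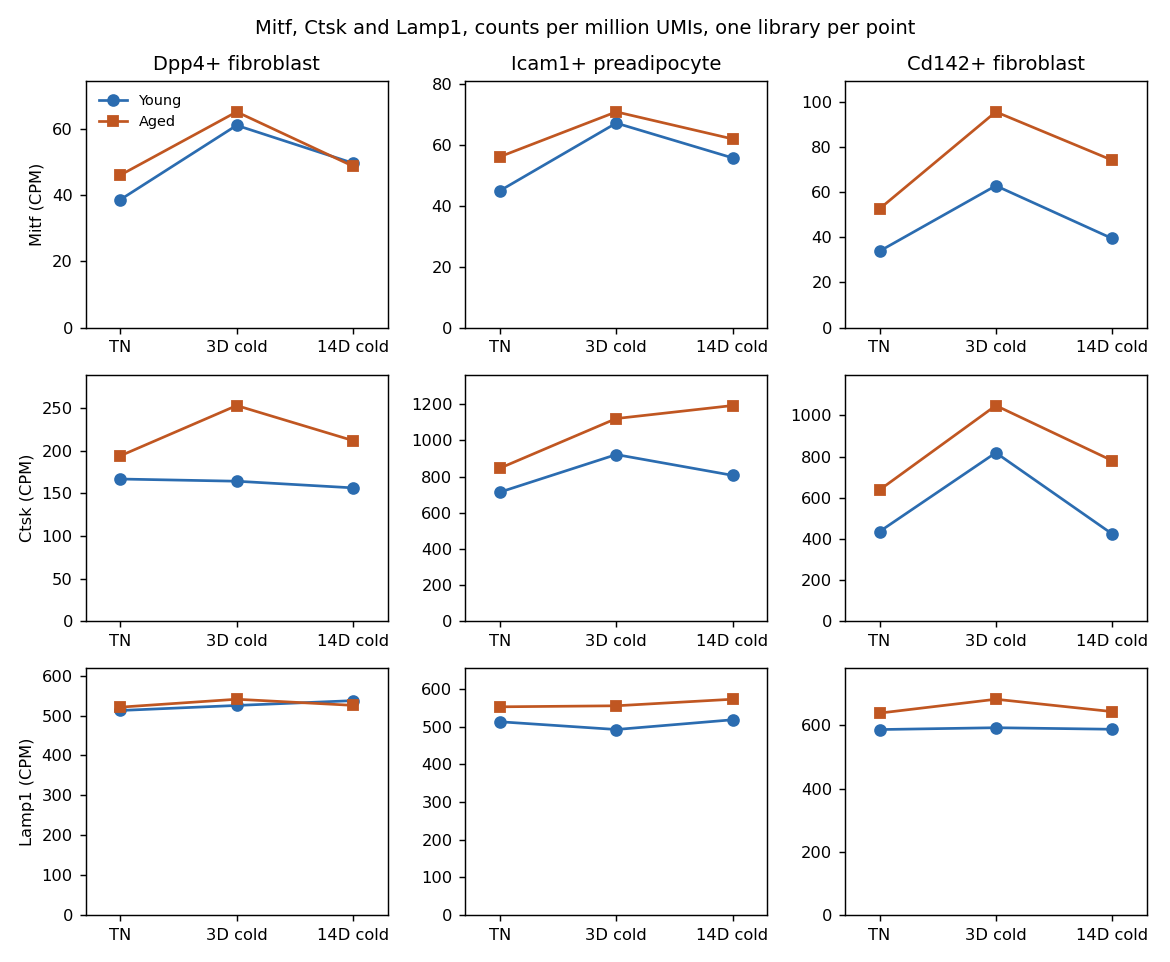
Mitf, Ctsk and Lamp1 in the 3 fibroblast classes, with 1 point for each library, temperature on the x axis and CPM on the y axis, in young and aged mice. Mitf peaks at 3D cold in each class and age, Ctsk in Cd142+ fibroblasts goes from 436 to 819 CPM in young and from 638 to 1048 CPM in aged at 3D cold, and Lamp1 stays between 493 and 683 CPM.

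The plot of Mitf, Ctsk and Lamp1 sets a factor gene, a protease gene and a membrane protein gene beside each other. In it, Mitf in all 3 classes and Ctsk in Icam1+ and Cd142+ cells stand higher at 3D cold than at TN in both ages.

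Levels of the members were also compared between the 3 fibroblast classes. With library as a block over 18 sums, 5 of 10 members differed between Icam1+ and Dpp4+ cells, 6 between Cd142+ and Dpp4+ cells and 4 between Cd142+ and Icam1+ cells, where 68.6%, 49.7% and 40.9% of all tested genes did. None of the members is a marker used for the gates. Mlana was 5.32 ± 0.12 higher on the log2 scale in Icam1+ than in Dpp4+ cells (adjusted p = 4.30e-15) and 1.28 ± 0.12 lower in Cd142+ than in Icam1+ cells (log2 difference -1.28, adjusted p = 1.72e-07). Its order was Icam1+, Cd142+, Dpp4+ in every library. Gpnmb had another order, with Cd142+ cells above Icam1+ cells by 0.64 ± 0.16 (adjusted p = 0.00457) and Icam1+ cells above Dpp4+ cells by 1.33 ± 0.16 (adjusted p = 1.66e-06).

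Ctsk was 2.32 ± 0.11 higher in Icam1+ than in Dpp4+ cells (adjusted p = 5.41e-12), and Cd142+ cells lay 0.48 below Icam1+ cells (log2 difference -0.48 ± 0.10, adjusted p = 0.00125). Lamp1 was higher in Cd142+ cells than in Dpp4+ cells by 0.28 ± 0.042 (adjusted p = 3.21e-05) and than in Icam1+ cells by 0.22 ± 0.042 (adjusted p = 0.000526). Mitf (0.25, adjusted p = 0.0195) and Mcoln2 (0.61, adjusted p = 0.007565) were higher in Icam1+ than in Dpp4+ cells. Tfeb (-0.27, adjusted p = 0.0237) and Tfe3 (-0.20, adjusted p = 0.00710) were lower in Cd142+ than in Dpp4+ cells. Ctsd and Mcoln1 did not pass in any of the 3 contrasts.

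Whether the age difference itself varied between classes was tested for the 8 members picked for function, and none of the 8 passed in any of the 3 contrasts by edgeR, where 2.55% (Icam1+ against Dpp4+), 0.666% (Cd142+ against Dpp4+) and 0.636% (Cd142+ against Icam1+) of all genes did. At an unadjusted p under 0.05 the counts were 0, 1 and 2 in that order, and no other tool was run. The age difference of Mitf was 0.60 ± 0.14 larger in Cd142+ than in Dpp4+ fibroblasts (adjusted p = 0.0738) and 0.52 ± 0.14 larger than in Icam1+ preadipocytes (adjusted p = 0.118), so a larger age difference of Mitf in Cd142+ fibroblasts was not established. For Mcoln2 the age difference was 1.17 larger in Cd142+ than in Icam1+ cells (adjusted p = 0.362). With no test, the age difference of Gpnmb was smaller by 1.06 ± 0.12 in Icam1+ and by 1.02 ± 0.13 in Cd142+ than in Dpp4+ cells (log2 differences -1.06 and -1.02), and that of Mlana by 0.58 ± 0.26 and 0.23 ± 0.31 (-0.58 and -0.23).

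To see how many cells carried the transcripts, each cell was thinned to 2000 UMIs, which left out no young cells and 859, 1481 and 252 aged cells of the Dpp4+, Icam1+ and Cd142+ classes, nearly all from aged 14D cold. In Icam1+ preadipocytes Gpnmb was detected in 19.6%, 29.3% and 21.4% of cells in young TN, 3D and 14D cold and in 34.0%, 42.1% and 40.1% in aged. In Dpp4+ fibroblasts the shares were 5.07%, 10.7% and 5.77% in young and 18.8%, 28.98% and 24.2% in aged. In Cd142+ fibroblasts they were 25.5%, 42.8% and 25.3% in young and 40.7%, 59.8% and 50.2% in aged. Young and aged libraries overlapped only in the last class.

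Mlana was detected in 3.12%, 6.08% and 4.95% of young and 12.01%, 18.2% and 17.3% of aged Icam1+ preadipocytes. The exact 95% binomial interval was 2.50% to 3.84% in young TN and 17.0% to 19.4% in aged 3D cold, and these intervals cover counting error only. In Cd142+ fibroblasts the shares were 1.15%, 3.11% and 0.815% in young and 4.35%, 10.7% and 7.97% in aged, and in Dpp4+ fibroblasts no share was above 0.793%. Without thinning, the Mlana share in Icam1+ cells was 10.95% to 17.2% in young and 23.1% to 37.4% in aged libraries, and the Gpnmb share 57.2% to 69.6% and 51.0% to 80.5%. Endothelial cells served as a background class. At 2000 UMIs they showed Gpnmb in 0% to 0.239% of young and 0.444% to 3.20% of aged cells, and Mlana in 0% to 0.363% and 0.0887% to 0.470%, at a median of 3362.5 UMIs per cell against 7954 in Icam1+ preadipocytes. A count of 0 among 551 young 14D cold endothelial cells allows, as 3 counts of the total, a share of cells with a Gpnmb UMI of up to 0.544% at this depth, and the exact 95% binomial limit is 0.667%. Without thinning 1 of these cells had a Gpnmb UMI. In Dpp4+ fibroblasts the Mlana share was above the highest endothelial one in aged 14D cold, and those of Icam1+ and Cd142+ cells were above it in all 6 libraries.

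At this depth the aged-to-young ratio was larger for the share of cells with the transcript than for the UMIs per cell that had it. In Icam1+ preadipocytes the mean share of cells with Mlana was 3.36 times higher in aged than in young libraries and the number of UMIs in a cell with Mlana 1.10 times, and for Gpnmb these ratios were 1.65 and 1.10. In Dpp4+ fibroblasts the ratios for Gpnmb were 3.35 and 1.17, and in Cd142+ fibroblasts those for Mlana 4.53 and 1.26. At 2000 UMIs a low transcript is mostly seen as 0 or 1 molecule, so the second ratio is held near 1 by the depth.

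**Figure D4:**
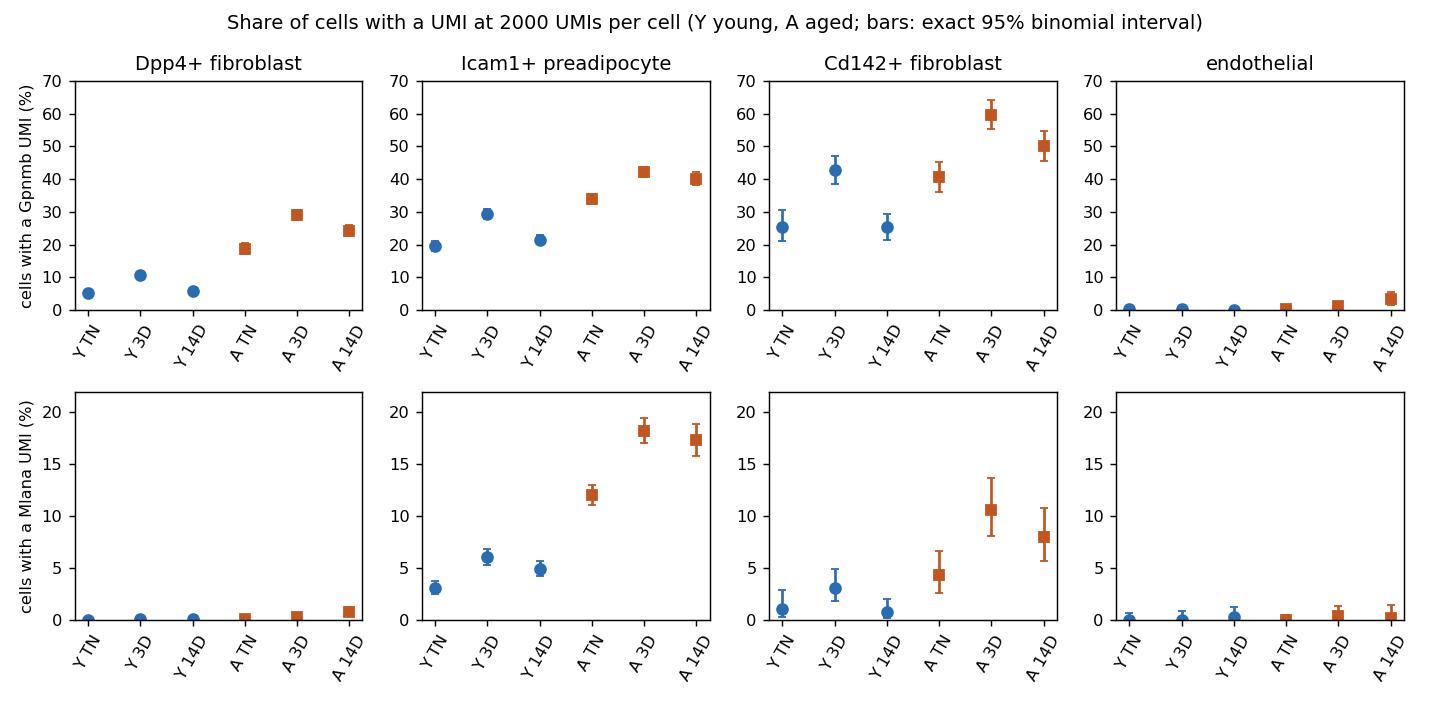
Percent of cells with a UMI of Gpnmb and of Mlana at 2000 UMIs per cell, with 1 point for each library and exact 95% binomial intervals as bars, in the 3 fibroblast classes and endothelial cells. Gpnmb reaches 59.8% of Cd142+ fibroblasts and Mlana 18.2% of Icam1+ preadipocytes, both in aged 3D cold, while endothelial cells stay at or below 3.20%.

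The plot of shares of cells has the young and the aged libraries side by side for each class, with the endothelial background at the right end.

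Gpnmb and Mlana were detected in the same Icam1+ cells slightly more often than independent detection would give. Cells with both numbered 28, 83 and 62 in young TN, 3D and 14D cold (of 2758, 3749 and 3332 cells) and 208, 362 and 169 in aged (of 4238, 3989 and 2344). The observed number over the expected one was 1.66, 1.24 and 1.75 in young and 1.20, 1.18 and 1.04 in aged, above 1 in 6 of 6 libraries with a median of 1.22. Put another way, Gpnmb was seen in 32.6%, 36.4% and 37.6% of the Mlana-positive and 19.2%, 28.8% and 20.6% of the other young cells, and in 40.9%, 49.9% and 41.6% against 33.1%, 40.4% and 39.7% of the aged cells. In Cd142+ fibroblasts cells with both numbered 3 to 47 per library and the ratio ran from 0.861 to 2.97, above 1 in 5 of 6 libraries, with aged 14D cold below. The 0 to 13 such cells per library in Dpp4+ fibroblasts are too few to read. Cells of a library share their source and are not replicates, so no p is given.

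The other members were then compared within each library between Icam1+ cells with and without a Mlana UMI, at the same 2000 UMIs per cell. Cells with Mlana (86 to 726 per library) had higher CPM of Gpnmb, Ctsk and Lamp1 in 6 of 6 libraries, with median ratios of 1.33, 1.37 and 1.15, and of Mitf and Ctsd in 5 of 6, with median ratios of 1.34 and 1.10. For Tfe3 and Mcoln1 the count was 3 of 6, and for Tfeb and Mcoln2 2 of 6. Split by Gpnmb instead (541 to 1679 cells with it per library), Mlana, Ctsk and Lamp1 were higher in the positive cells in 6 of 6 libraries. Their median ratios were 1.41, 1.27 and 1.07. Mitf and Mcoln1 were higher in 5 of 6, Ctsd in 4 of 6, Tfe3 in 3 of 6 and Tfeb and Mcoln2 in 2 of 6. In Cd142+ fibroblasts split by Gpnmb, Ctsk (median ratio 1.84) and Lamp1 (1.29) were higher in 6 of 6 libraries. Mlana, Tfe3 and Mcoln1 were higher there in 5 of 6, Mitf, Tfeb and Ctsd in 3 of 6 and Mcoln2 in 2 of 6. In Dpp4+ fibroblasts split by Gpnmb, Ctsk, Ctsd and Lamp1 were higher in 6 of 6 libraries and Mlana and Mitf in 5 of 6. Tfeb was higher there in 4 of 6 and Tfe3, Mcoln1 and Mcoln2 in 3 of 6. Genes other than the members were not split in this way, so the share of all genes with such a pattern is not known.

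In endothelial cells and SMC/pericytes few UMIs of Gpnmb and Mlana were counted. Endothelial cells held 60 Gpnmb UMIs in all, at 0.431, 1.88 and 0.418 CPM in young and 2.35, 8.86 and 12.1 CPM in aged, and 16 Mlana UMIs, and SMC/pericytes held 14 and 3. Of the 8 members picked for function, 7 could be tested for age in endothelial cells and none passed by edgeR (1 at an unadjusted p under 0.05, 0 with DESeq2), where 1.13% of all genes did. In SMC/pericytes 5 could be tested and none passed (1 at an unadjusted p under 0.05, 0 with DESeq2), where 0.339% did. The cell filter kept 91 to 296 SMC/pericytes per library, against 160 to 653 with the fixed cell limits used as an alternative. Endothelial Ctsk stood at 10.3, 9.40 and 8.79 CPM in young and 8.32, 20.4 and 29.1 CPM in aged, a difference of 0.88 (adjusted p = 0.2003) that reached an adjusted p of 0.000982 without young TN and 0.000183 without aged TN, within a range up to 0.762 over its alternatives. Tfeb in endothelial cells stood at 19.4 ± 3.82 CPM in young and 21.0 ± 1.68 CPM in aged libraries (SD, n = 3 each).

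The few immune cells left by the sort, 36 to 58 per library, held Gpnmb at 0, 0 and 9.19 CPM in young and 55.6, 20.7 and 655 CPM in aged, from 172 UMIs in the last library and at most 17 in any other. The aged 14D cold value was above every fibroblast sum, but its 172 UMIs came from 6 of 37 cells. At 2000 UMIs per cell, 3 of 26 cells in that library held 6 Gpnmb UMIs. Schwann cells, 14 to 38 per library, held Gpnmb at 43.8, 40.6 and 17.1 CPM in young and 15.2, 0 and 99.2 CPM in aged, from at most 4 UMIs per library, and Mlana at 0 in all 6. Immune Mlana was at 0 but for 3 UMIs in aged 3D cold. Summed over the 12 macrophage markers, Icam1+ preadipocytes held 2.88, 2.89 and 2.28 CPM in young and 2.64, 4.08 and 19.98 CPM in aged, so aged 14D cold stood apart from the other 5. In Dpp4+ fibroblasts the sum was 2.64 to 4.13 CPM in young and 1.50 to 8.21 CPM in aged, and in Cd142+ fibroblasts 7.83 to 9.87 and 3.03 to 15.2 CPM. Without every cell that held a UMI of a macrophage or melanocyte marker, the age difference was 1.90, 0.85 and 0.96 for Gpnmb and 2.47, 1.94 and 2.38 for Mlana in Dpp4+, Icam1+ and Cd142+ cells.

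Of the macrophage markers, 5, 3 and 1 had enough counts to be tested for age in the Dpp4+, Icam1+ and Cd142+ classes, and the 1 that passed, Csf1r in Cd142+ fibroblasts, was lower in aged cells (log2 difference -1.79, adjusted p = 0.0130). Cd68, which is on the lysosomal membrane list here but is also used as a macrophage marker, was higher in aged Icam1+ preadipocytes (0.58, adjusted p = 0.0223), at 15.9 ± 5.81 against 10.7 ± 3.80 CPM in young (SD, n = 3 each) with overlap. The 10 melanocyte markers summed to 1.477 to 2.32 CPM in young and 1.45 to 2.22 CPM in aged Icam1+ preadipocytes, while Mlana in the same cells stood at 19.0 to 127 CPM. The pigment cell genes Tyrp1, Slc45a2 and Gpr143 were at 0 UMIs in these cells, and Tyr and Dct had 5 each. Mc1r with 222 and Pmel with 94 made up most of the sum. Adipocyte markers summed to 41.2 to 70.7 CPM in young Icam1+ preadipocytes. In aged TN, 3D and 14D cold the sum was 42.5, 78.7 and 126 CPM. In Cd142+ fibroblasts it was 5.59 to 22.5 CPM in young and 11.0, 16.1 and 67.3 CPM in aged. Of the aged libraries, only 14D cold thus lay above the young range there. In Dpp4+ fibroblasts it was 8.89 to 14.6 CPM in young and 15.2, 20.8 and 32.6 CPM in aged. Of the markers tested, 2 of 5, 2 of 5 and 1 of 2 were higher in aged Dpp4+, Icam1+ and Cd142+ cells. The adipocyte genes that passed were Adipoq (1.35) and Cidec (1.12) in Dpp4+, Cfd (2.18) and Cidec (2.00) in Icam1+ and Car3 (1.09) in Cd142+ cells. Their part in the age differences of the members was not tested.

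Other genes of the lysosome, the V-ATPase proton pump, autophagy and the control of the MiT/TFE factors were read from fixed lists, and genes were called in both directions. Aged Dpp4+ cells had 8 of 96 tested genes higher and 7 lower, aged Icam1+ cells 9 and 7 of 96 and aged Cd142+ cells 3 and 7 of 94, beside the 16.5%, 11.9% and 9.83% of all genes given above. The median log2 difference of the lists together was 0.01, 0.01 and 0.02, and that of all tested genes 0.00099, -0.0048 and 0.00097. Of 39 lysosomal hydrolases 6 were lower in Dpp4+ cells, 2 were higher and 5 lower in Icam1+ cells and 1 was higher and 6 lower in Cd142+ cells, with medians of -0.10, -0.03 and -0.14. Among 19 lysosomal membrane proteins and transporters 2 were higher in Dpp4+ cells and 1 in Icam1+ cells.

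Ctsh, which encodes the lysosomal protease cathepsin H, fell most clearly. It stood at 386 ± 99.7 CPM in young and 148 ± 24.6 CPM in aged Cd142+ fibroblasts (SD, n = 3 each), a difference of -1.36 ± 0.10 (adjusted p = 2.40e-06 by edgeR), and it was also lower in aged Dpp4+ (-1.30) and Icam1+ (-0.51) cells. Ctsf (-0.73, adjusted p = 0.000678) and Acp5, the tartrate-resistant acid phosphatase (-0.69, adjusted p = 0.00492), were lower in aged Cd142+ fibroblasts. Ctsc, a protease that activates serine proteases, was higher in aged Icam1+ preadipocytes, at 62.5 against 35.3 CPM (0.83 ± 0.076, adjusted p = 0.00131).

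Among the genes that control the MiT/TFE factors, 3 of 10 were higher in Dpp4+, 2 of 10 in Icam1+ and 1 of 9 in Cd142+ cells, and 1, Lamtor2 in Icam1+ cells, was lower (-0.25, adjusted p = 0.0476). Rragd, a Rag GTPase gene known as a target of these factors, was higher in aged Dpp4+ fibroblasts at 1.18 against 0.342 CPM. The difference was 1.78 ± 0.33 there (adjusted p = 0.00500 by edgeR) and 1.60 in Icam1+ preadipocytes. Both Dpp4+ means were below those of Mlana in the same cells (3.08 CPM in aged and 0.548 CPM in young), near the limit of the depth. Fnip2, a partner of folliculin, was higher in aged cells of the 3 classes, by 0.46, 0.54 and 1.21 (adjusted p = 0.00163 in Cd142+ fibroblasts, 21.4 against 9.15 CPM). Fnip1 was higher in Dpp4+ fibroblasts by 0.27 (adjusted p = 0.0101). Of the autophagy genes, Sqstm1, which encodes the cargo receptor p62, was higher in all 3 classes by 0.52, 0.37 and 0.58, and Wipi1 was lower in Dpp4+ and Cd142+ cells, with differences of -0.42 and -0.48. Atg7 was higher in Dpp4+ fibroblasts (0.29, adjusted p = 0.0351).

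Of the V-ATPase subunits 1 of 16 was higher in Dpp4+ cells, and 3 of 16 were higher and 1 lower in Icam1+ cells. The largest of these were Atp6v0a1 (0.32), Atp6v0d1 (-0.28), Atp6v1b2 (0.28) and Atp6ap2 (0.27), all in Icam1+ preadipocytes. Among the lysosomal membrane proteins, Cln3 (0.30) and Scarb2 (0.24) were higher in aged Dpp4+ fibroblasts, and Cd68 in aged Icam1+ preadipocytes as given above.

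**Figure D5:**
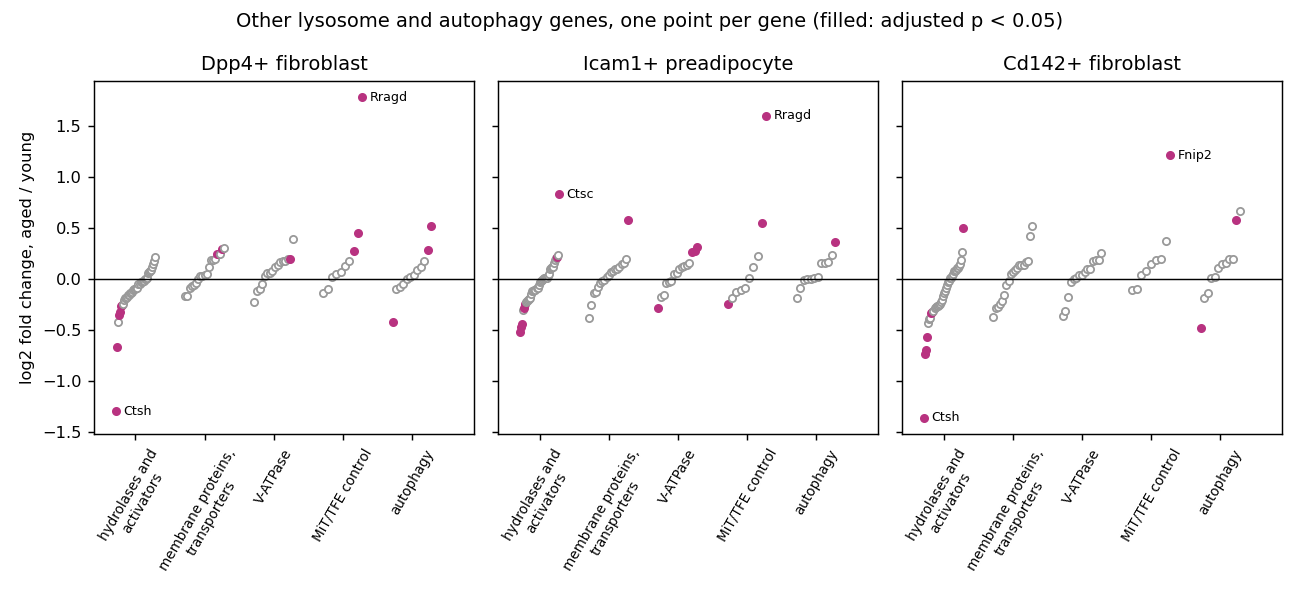
Age differences of the listed lysosome and autophagy genes other than the members, with 1 point per gene, the 5 lists along the x axis and aged over young on the log2 scale on the y axis, in 3 panels for the fibroblast classes. Filled points passed an adjusted p of 0.05, and the labelled genes, Rragd, Fnip2, Ctsc and Ctsh, lie farthest from 0.

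In the plot of the lists most points lie close to 0, with filled points on both sides.

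The temperature test was passed by 1 of 96 genes of these lists for Dpp4+ cells, 5 of 96 for Icam1+ cells and 2 of 94 for Cd142+ cells, beside 6.29%, 2.88% and 1.66% of all tested genes. Atp6v1b2, a V-ATPase subunit gene, was higher at both cold times in Icam1+ preadipocytes (0.70 and 0.30, adjusted p = 0.0161) and Cd142+ fibroblasts (0.67 and 0.44, adjusted p = 0.0236). Lgmn, the asparaginyl protease legumain, was higher in Icam1+ preadipocytes at 3D and 14D cold (0.89 and 0.80, adjusted p = 0.007835). Cd68 was lower at 14D cold in Dpp4+ (-0.97, adjusted p = 0.0199) and Icam1+ cells (-1.06, adjusted p = 0.0270). Acp5 (-0.44 and 0.31, adjusted p = 0.0215) and Hexa (-0.34 and 0.10, adjusted p = 0.0478) were lower at 3D cold and higher at 14D cold than at TN in Icam1+ preadipocytes, and Ctsh was lower at both times in Cd142+ fibroblasts (-0.60 and -0.09, adjusted p = 0.04435).

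Across the 36 sums of 6 classes and 6 libraries, the genes whose log2 level ran most like Gpnmb, of 6194 with enough signal, were Ifi204 (Pearson r = 0.896), Mmp3 (0.893), Dcn (0.891), Ptx3 (0.889) and Inmt (0.886). For Mlana they were Fbln7 (0.923), Vmp1 (0.874), Cxcl14 (0.873), Cyp1b1 (0.873) and Hsd11b1 (0.866), of which Cxcl14 is a marker used for the Icam1+ gate. Between members, r was 0.837 for Gpnmb and Mitf, 0.842 for Gpnmb and Ctsk, 0.876 for Mitf and Ctsk and 0.812 for Mlana and Ctsk, and -0.0145 for Gpnmb and Tfeb. These points share libraries, depth and the contrast between fibroblasts and other classes, so the values describe the pattern and carry no p.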

How the data were processed

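The authors aligned 10x Genomics 3′ single-cell libraries of 6 samples to mm10 with Cell Ranger 3.1.0 (per the file headers and the submitters' processing notes, which also name R 4.1.1 and Seurat) and deposited raw UMI counts per gene and barcode, with no normalization and without a cell annotation. Barcodes were kept with more than 200 genes, UMIs and genes within 3 scaled median absolute deviations of their library's median on the log10 scale, and mitochondrial share below the same limit. Classes were set by scores over marker lists, with a margin of 0.1 between the best and the next score; the gate was set after the data were seen. No doublet caller was run, and barcodes high for more than 1 broad class stayed out of all classes. Counts were summed per class and library and tested with edgeR 4.0.16 in R 4.3.3 (TMM factors, filterByExpr, quasi-likelihood F test, Benjamini-Hochberg over all genes, threshold 0.05): age with temperature as a covariate, temperature with age, and class over 18 sums with library as a block. With 6 libraries an age fit has 2 residual degrees of freedom. Alternatives were DESeq2 1.42.0, median-of-ratios (RLE) factors, all genes with a UMI, no covariate, a stricter gate, thinned cells, fixed cell limits, no cells with macrophage or melanocyte UMIs, and each library left out. On simulated counts with 200 genes changed by 1 on the log2 scale, the age test recovered 91.5% in Dpp4+, 91.5% in Icam1+ and 84% in Cd142+ cells. It made 4, 4 and 2 false calls. That change is larger than any member's age difference that did not pass in these classes, so smaller changes were not covered. Every member is named; of each pathway list up to 4 genes past the threshold with the largest age difference in any fibroblast class are named, and the 5 genes most like Gpnmb and Mlana. Pathway genes with a temperature call were picked for mention once their values had been seen. The members and lists were chosen with earlier results of these data known. Lymphatic endothelial and Schwann cells were too few to test.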

Additional observations from a re-analysis of the deposited data

How the results depend on the processing

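The differences of Gpnmb and Mlana with age stayed above 0 in every alternative run in the 3 fibroblast classes. They ran from 0.79 to 2.05 for Gpnmb and from 1.89 to 2.68 for Mlana on the log2 scale. Both genes were chosen on this contrast in these same libraries, so the alternatives are no independent test of it. No tested difference of a single member that passed reversed: of 1217 alternatives, 1139 kept their side of the threshold, 58 lost it and 20 gained it. Of the 8 members, 1 was higher with age in Icam1+ cells and 3 in Cd142+ cells, and 0 in both without the temperature term; leaving out 1 library gave 0 each time and 2 to 3. The number of members that passed for temperature was 4, 2 and 4 in Dpp4+, Icam1+ and Cd142+ cells and 0 in each without the age term. Leaving out 1 library gave 1 to 4, 0 to 5 and 1 to 4. In Icam1+ cells it was 4 with DESeq2 and 5 with no filter on low counts, and in Cd142+ cells 2 with cells thinned to 2000 UMIs. The class counts were 4 to 5, 5 to 7 and 4 to 5 without 1 library. The listed pathway genes called higher ran from 3 to 12 in Dpp4+, 1 to 11 in Icam1+ and 2 to 5 in Cd142+ cells, and those called lower from 4 to 10, 0 to 7 and 2 to 8. The median co-detection ratio in Icam1+ cells ran from 1.17 to 1.23. The causes were not tested. Single temperature calls lost without 1 library were those of Mlana, Tfe3 and Mitf in Dpp4+ cells (adjusted p up to 0.1349 without young TN, 0.2111 without young TN and 0.08081 without young 3D cold), of Gpnmb and Mlana in Icam1+ cells (up to 0.3066 and 0.1047 without young 3D cold) and of Mlana, Mitf and Ctsk in Cd142+ cells (up to 0.1869 without aged TN, and 0.09062 and 0.1306 without young 3D cold). Without the temperature term, Mitf and Ctsk in Cd142+ cells lost their age call (adjusted p = 0.141 and 0.257). Mlana in Dpp4+ and Mcoln2 in Cd142+ cells had too few counts to be tested when thinned. The age fit sets young against aged libraries of the same temperature, and the labels give no replicate number by which to pair them further. Each age has 3 libraries and each age and temperature 1, so the interaction of age and temperature could not be tested, and Mlana in Dpp4+ cells, with 7 to 95 UMIs per library, is at the limit of the depth.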
